A study of Mus musculus with 8 samples.

Results

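The unfolded protein response, the chaperones of the endoplasmic reticulum (ER) and ER-associated degradation (ERAD) were followed through 30 genes, picked by symbol from the 39017 genes of the deposited count table. They comprised 8 sensors, transcription factors and their processing enzymes, 10 chaperones and co-chaperones, 4 protein disulfide isomerases and 8 ERAD factors. The RNA came from satellite cells, which are the resident stem cells of muscle fibres, isolated from diaphragm and abdominal muscle of adult Pax3GFP/+ mice, in which 1 Pax3 allele carries a green fluorescent reporter. Dishes of 35 mm received 7500 cells each, and cultures ran for 4 days with sal003 (4 libraries) or with its solvent DMSO (4 libraries). Both groups were of the same genotype and culture time. Sal003 blocks the removal of phosphate from the translation initiation factor eIF2α. Its labelled dose is 10 µM in the design text and attributes, but the treatment protocol has 10 mM.

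When proteins fail to fold in the ER, the chaperone BiP leaves the membrane sensors IRE1, PERK and ATF6. IRE1 splices the Xbp1 transcript, ATF6 is cut in the Golgi to free a transcription factor, and PERK phosphorylates eIF2α; together they raise chaperones, oxidoreductases and the machinery that sends misfolded proteins back to the cytosol for degradation. Sal003 acts on the step that removes this phosphate, whichever kinase placed it, and in muscle stem cells eIF2α phosphorylation is known for its part in quiescence and self-renewal.

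Sites through which this response is known to reach its genes were looked up in RefSeq promoters, because several members share them. The table (build GRCm38.p6, 250 bases before to 50 bases after a start) held 25 of the 30 members, all but Atf6, Creb3l1, Hyou1, Manf and Derl1. The ER stress element (ERSE: CCAAT, 9 bases of any kind, then CCACG), searched on both strands, was found in 7 of these 25, against 0.119% of the 32851 promoters in the table. Each is shown on the strand of its gene with the element in capitals; where the capitals open with CGTGG the element lies on the opposite strand. Hsp90b1 held it in 2 places.
Hspa5, chr2:34772020-34772048, plus strand: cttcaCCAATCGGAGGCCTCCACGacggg
Hsp90b1, chr10:86705633-86705661, minus strand: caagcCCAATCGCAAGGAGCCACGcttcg
Hsp90b1, chr10:86705528-86705556, minus strand: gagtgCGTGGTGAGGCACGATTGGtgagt
Calr, chr8:84847070-84847098, minus strand: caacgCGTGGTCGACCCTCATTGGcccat
Canx, chr11:50325795-50325823, minus strand: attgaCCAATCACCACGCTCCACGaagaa
Pdia6, chr12:17266486-17266514, plus strand: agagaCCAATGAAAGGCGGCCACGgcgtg
Creld2, chr15:88819515-88819543, plus strand: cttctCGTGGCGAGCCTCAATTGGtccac
Syvn1, chr19:6046527-6046555, plus strand: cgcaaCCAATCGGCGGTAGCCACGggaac

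The related element ERSE-II (ATTGG, 1 base of any kind, then CCACG) was found in the promoters of Herpud1 and Dnajb11, 2 of 25 members, against 0.0365% of all promoters; in the 250 bases before the start alone it was in 1 member, Herpud1. Herpud1 also held the C/EBP-ATF response element (CARE: TGATGNAA), a type of site that ATF4 is known to bind, which 3.97% of all promoters and 1 of 25 members carried. The unfolded protein response element (UPRE: TGACGTGG) was in 0 of 25 members and 0.676% of all promoters. No motif contains another, although ERSE and ERSE-II share the letters CCACG. The 250 bases before the Herpud1 start are given whole because this gene had the largest fold change of the 30 and the only promoter with both of its elements; the first capitals are the CARE match, on the opposite strand, and the second the ERSE-II match.
Herpud1, chr8:94386179-94386428, plus strand: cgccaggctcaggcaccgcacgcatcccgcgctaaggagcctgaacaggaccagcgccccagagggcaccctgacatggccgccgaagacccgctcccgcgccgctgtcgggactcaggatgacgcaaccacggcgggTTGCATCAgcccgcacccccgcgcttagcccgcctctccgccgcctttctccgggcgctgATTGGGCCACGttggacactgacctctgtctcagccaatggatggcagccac
A match here is a run of letters and was not tested for binding.

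All 30 members passed the filter on low counts. Of these, 10 were lower and 1 was higher in sal003 than in DMSO at an adjusted p below 0.05 (edgeR quasi-likelihood test, Benjamini-Hochberg adjustment over all 15816 tested genes). Among all tested genes 12.2% were lower and 10.6% higher, or 22.7% in either direction. The groups of libraries did not overlap for 10 of the 30 members, against 26.8% of all tested genes. The members' median log2 fold change (sal003 over DMSO, as are all fold changes here) was -0.14, and that of all tested genes was 0.00; 20 of the 30 were below 0. By role, 5 of 8 ERAD factors fell and 1 rose, 3 of 10 chaperones and co-chaperones fell, 2 of 8 sensors and transcription factors fell, and 0 of 4 disulfide isomerases passed the threshold.

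Summed over each role, levels were lower in sal003 for the ERAD factors and for the sensors and transcription factors. Levels are in CPM (counts scaled to a common library size by TMM) and given as mean ± SD with n = 4 throughout. The 8 ERAD factors together had 448 ± 31.0 CPM in sal003 and 628 ± 15.4 CPM in DMSO. The 8 sensors and transcription factors had 603 ± 4.98 CPM in sal003 and 765 ± 6.14 CPM in DMSO. Atf6 alone made up 183 ± 8.09 CPM of this in sal003 and 340 ± 36.5 CPM in DMSO. The median log2 fold change of these 8 genes was -0.02 and 4 of 8 were below 0, so their lower sum mostly reflects Atf6. For both classes every sal003 library was below every DMSO library. The 10 chaperones had 4988 ± 100.4 CPM in sal003 and 4793 ± 385 CPM in DMSO, and the 4 isomerases 1558 ± 48.7 CPM in sal003 and 1635 ± 46.1 CPM in DMSO. On this scaling the library ranges of these 2 classes overlapped.

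**Figure D1:**
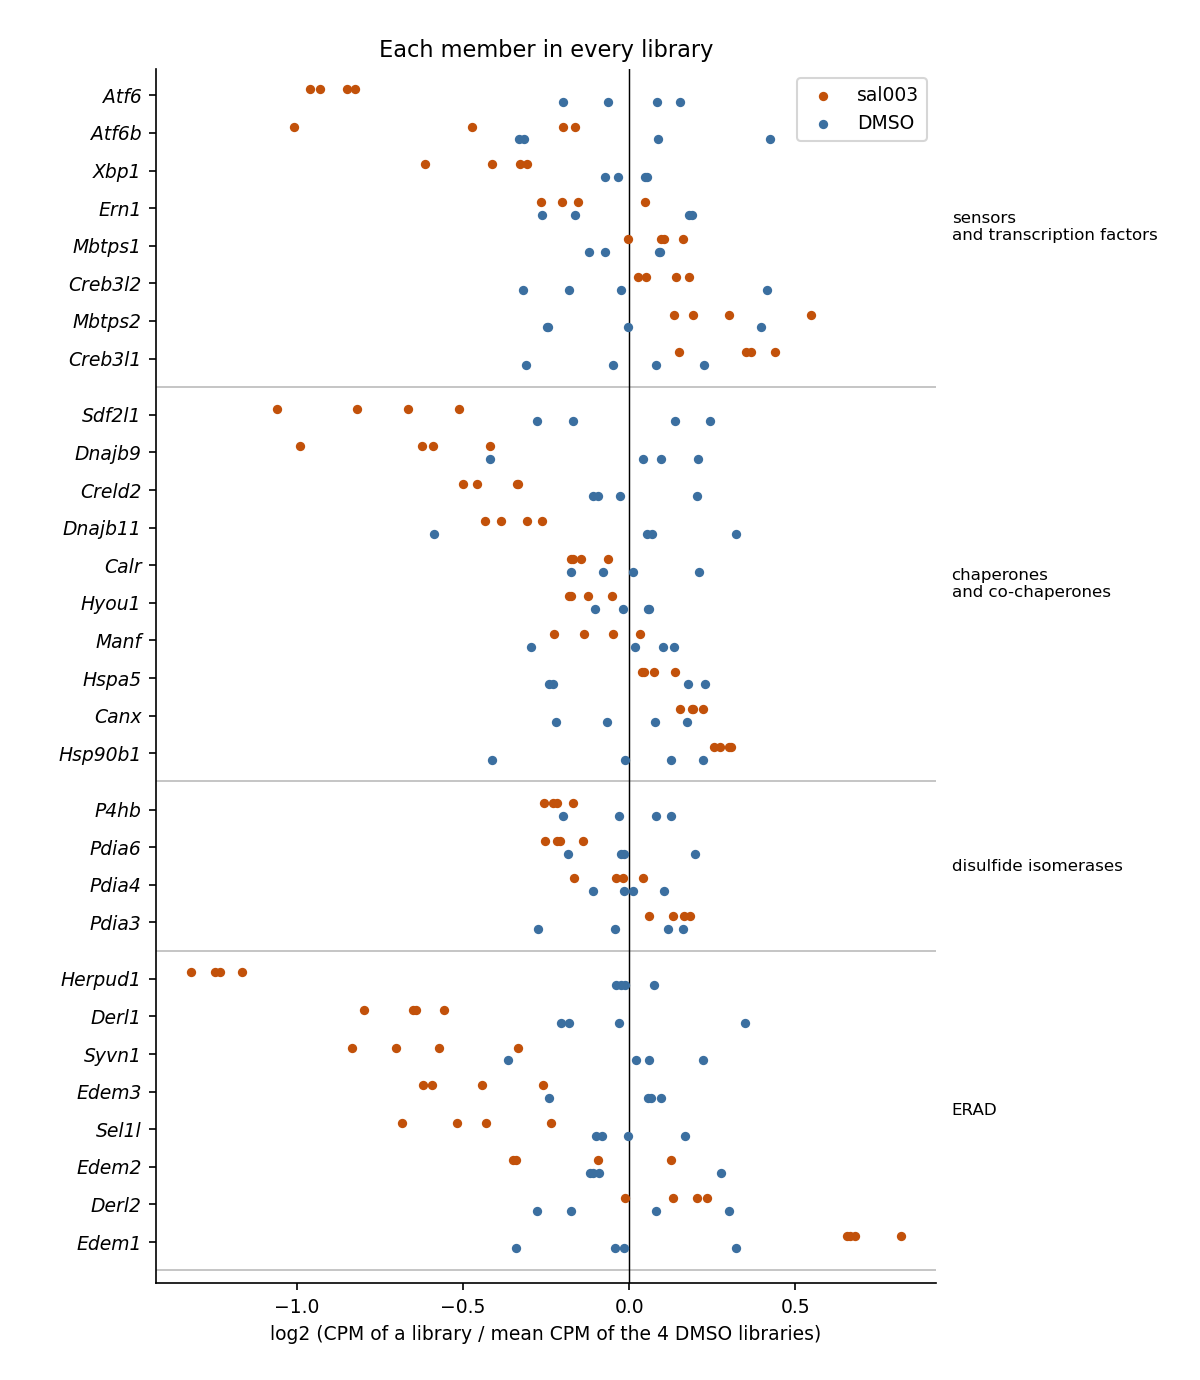
Each of the 30 members in each of the 8 libraries, by role: the horizontal axis is the log2 ratio of a library's CPM to the mean CPM of the 4 DMSO libraries, with sal003 libraries as orange points and DMSO libraries as blue points. The sal003 points of Herpud1 lie farthest to the left and 1 sal003 point of Edem1 farthest to the right, the sal003 points of Atf6 are all well left of its DMSO points, and the points of most chaperones and isomerases are mixed.

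The libraries held 37248830 to 39378523 counts in sal003 and 32753929 to 40234107 in DMSO. DMSO replicate 2 stood apart: it had 14437 genes with a count, against 16561 to 18076 in the other libraries, and its Spearman correlation with another DMSO library reached at most 0.949, against 0.977 to 0.982 within sal003. Members are therefore also given without it where a call changed. The labels do not say whether libraries of a group came from separate mice or cultures, so p-values measure the spread between these libraries. The cell state differed between the groups: of 12 differentiation and contractile genes, 12 were lower in sal003 (summed level 15902 to 18437 CPM in sal003 and 57109 to 80410 CPM in DMSO), and of 8 cell cycle genes, 8 were higher (3561 to 3758 CPM in sal003 and 1427 to 1973 CPM in DMSO). Of 10 satellite cell and myoblast markers, which sum to 2879 to 3161 CPM in sal003 and 4464 to 5139 CPM in DMSO, Pax7 and Met were higher and Cdh15, Des and Itga7 lower. In bulk RNA, fewer cells of a type and less RNA per cell cannot be told apart, and the part of these shifts in the members' changes was not tested.

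Markers of other cells were mostly low or absent, apart from some genes of the fibroblast and pericyte lists. Fibroblast markers summed to 484 to 529 CPM in sal003 and 434 to 529 CPM in DMSO. Most of this was Col3a1, Fbn1 and Gsn, at 106 ± 9.34, 301 ± 13.8 and 92.1 ± 15.8 CPM in sal003. In DMSO they had 101 ± 8.93, 233 ± 26.4 and 137 ± 19.8 CPM. Of the 11, 6 were tested, with 1 higher (Fbn1) and 1 lower (Gsn), and Dcn, Lum and Dpt were at 0 in all libraries. Smooth muscle and pericyte markers summed to 156 to 186 CPM in sal003 and 265 to 321 CPM in DMSO. Of the 7, 4 were tested and 2 were lower (Cspg4 and Abcc9), and Cnn1 was at 0. Endothelial markers summed to 10.5 to 16.05 CPM in sal003 and 14.1 to 20.6 CPM in DMSO. Of the 8, 5 were tested and 1 was lower (Vwf), and Tie1 and Emcn were at 0. Immune and mesothelial markers summed to at most 5.55 and 3.79 CPM in sal003 and 6.29 and 8.24 CPM in DMSO. Most of these were too low to test; of the few tested, Msln (mesothelial) was lower, and 0 of 2 immune markers passed the threshold. Ptprc, Emr1, Lyz2 and Cd3e (immune) and Upk3b and Lrrn4 (mesothelial) were at 0 in all libraries. The part of these markers in the members' changes was not tested.

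Of the sensors and transcription factors, Atf6, which encodes the membrane-bound factor released by cleavage in the Golgi (mm10 chr1:170704674-170867771, minus strand), fell most. It had 175, 178, 192 and 189 CPM in the sal003 libraries, against 325, 296, 359.7 and 378 CPM in the DMSO libraries. Every sal003 library was far below every DMSO library. The log2 fold change was -0.89 ± 0.09 (SE, n = 4 per group; adjusted p = 2.9e-06, edgeR), and the call held when any 1 library was left out. Xbp1, whose transcript IRE1 splices into the message of an active factor, had 59.4, 55.2, 58.5 and 48.0 CPM in sal003, against 69.9, 76.2, 75.8 and 71.8 CPM in DMSO. The groups did not overlap, and sal003 replicate 4 was the lowest. Its log2 fold change was -0.41 ± 0.11 (adjusted p = 0.0128, edgeR); without sal003 replicate 4 it was -0.34 and no longer called (adjusted p = 0.0544). Counts over whole genes cannot separate spliced from unspliced Xbp1.

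The other sensors and processing enzymes did not pass the threshold. Ern1, which encodes IRE1, averaged 68.5 ± 6.64 CPM in sal003 and 75.4 ± 12 CPM in DMSO, a log2 fold change of -0.14 with a 95% interval of -0.41 to 0.13. Atf6b, a relative of Atf6 with weaker transcriptional activity, averaged 21.3 ± 5.20 CPM in sal003 and 28.6 ± 7.39 CPM in DMSO (log2 fold change -0.42 ± 0.22, adjusted p = 0.207, edgeR). Its estimate was close to that of Xbp1, with a wider error. Mbtps1 and Mbtps2 encode the Golgi proteases that cut ATF6. Their log2 fold changes were 0.09 ± 0.09 and 0.30 ± 0.17 (adjusted p = 0.576 and 0.268, edgeR). Mbtps2 passed without DMSO replicate 2 (0.47, adjusted p = 0.0276), and 28.4% of its exon length is shared with Yy2 on the same strand, so the split of reads between these genes is uncertain. Creb3l1 and Creb3l2, membrane-bound factors released in the same way and known from secretory cells of bone and cartilage, had log2 fold changes of 0.33 ± 0.15 and 0.10 ± 0.14 (adjusted p = 0.134 and 0.713, edgeR).

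Of the abundant chaperones none passed the threshold, and Hsp90b1 came nearest to it. Hspa5, which encodes BiP, the chaperone that holds the sensors silent, had 711, 713, 761 and 729 CPM in sal003, against 586, 590.2, 781 and 809.5 CPM in DMSO. All 4 sal003 libraries lay inside the DMSO range. The log2 fold change was 0.07, with a 95% interval of -0.15 to 0.30 (adjusted p = 0.713, edgeR). Hsp90b1, which encodes GRP94, the HSP90 of the ER, had 1585, 1604, 1635 and 1639.9 CPM in sal003, against 1315, 998, 1549.5 and 1447 CPM in DMSO. Every sal003 library was above every DMSO library, and DMSO replicate 2 was the lowest. At 0.28 ± 0.11, its log2 fold change missed the threshold (adjusted p = 0.0764, edgeR), but passed it without DMSO replicate 2 (0.18, adjusted p = 0.0413) or DMSO replicate 3 (0.38, adjusted p = 0.025). A pseudogene on the opposite strand covers 10.3% of the Hsp90b1 exon length.

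The lectin chaperones Calr and Canx hold glycoproteins in the ER until they fold. Calr averaged 1367 ± 49.3 CPM in sal003 and 1503 ± 175 CPM in DMSO (log2 fold change -0.14 ± 0.09, adjusted p = 0.311, edgeR). Canx averaged 756 ± 14.9 CPM in sal003 and 663 ± 78.1 CPM in DMSO (0.19 ± 0.09, adjusted p = 0.149, edgeR). Neither passed the threshold, and their estimates had opposite signs. Hyou1, a nucleotide exchange factor of BiP, averaged 235 ± 9.80 CPM in sal003 and 257 ± 13.4 CPM in DMSO (-0.13 ± 0.08). Manf, a secreted ER stress protein that binds BiP, averaged 129 ± 10.1 CPM in sal003 and 138 ± 17.6 CPM in DMSO (-0.09 ± 0.11). The adjusted p of Hyou1 was 0.296 and that of Manf 0.642 (edgeR).

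The 3 chaperone-class members that fell were low in abundance. Dnajb9 encodes ERdj4, a J-domain partner of BiP known from mouse and hamster cells to restrain IRE1. It had 25.7, 19.5, 25.1 and 28.9 CPM in sal003, against 28.9, 44.7, 41.3 and 39.8 CPM in DMSO. The highest sal003 library met the lowest DMSO library, and the rest were apart. The log2 fold change was -0.64 ± 0.17 (adjusted p = 0.0127, edgeR), and -0.54 without sal003 replicate 2 (adjusted p = 0.0524). Sdf2l1, which encodes a partner of the co-chaperone ERdj3, had 9.76, 8.78, 7.42 and 10.9 CPM in sal003, against 17, 13.8, 18.3 and 12.8 CPM in DMSO. The groups did not overlap, but their nearest libraries were close. Its log2 fold change was -0.75 ± 0.23 (adjusted p = 0.0269, edgeR), and the call was lost in 5 of 8 fits that left out 1 library, with adjusted p up to 0.0951.

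Creld2, an ER-resident protein induced by ER stress, had 35.1, 35.2, 31.4 and 32.3 CPM in sal003, against 41.6, 51.2, 41.2 and 43.6 CPM in DMSO. All sal003 libraries were below all DMSO libraries. The fold change of Creld2 was -0.41 ± 0.13 on the log2 scale (adjusted p = 0.0357, edgeR), and only 1 of 8 fits that left out 1 library kept the call, with adjusted p up to 0.111; without DMSO replicate 2 the log2 fold change was -0.32 (adjusted p = 0.0756). Dnajb11 encodes ERdj3, the co-chaperone that Sdf2l1 binds. It averaged 89.4 ± 4.75 CPM in sal003 and 114 ± 27.6 CPM in DMSO, a log2 fold change of -0.35 ± 0.15 that missed the threshold (adjusted p = 0.12, edgeR). DMSO replicate 2, at 75.6 CPM, lay below all sal003 libraries, while the other DMSO libraries had 119, 142 and 118 CPM. Without that library the log2 fold change was -0.49 (adjusted p = 0.000406).

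None of the 4 disulfide isomerases passed the threshold. P4hb, the main isomerase of the ER and a subunit of collagen prolyl hydroxylase, averaged 524 ± 13.6 CPM in sal003 and 609.5 ± 59.7 CPM in DMSO. Its log2 fold change was -0.22 ± 0.08 (adjusted p = 0.0759, edgeR), and -0.26 without DMSO replicate 4 (adjusted p = 0.0254). Pdia3, which works with Calr and Canx on glycoproteins, had 521 ± 19.2 CPM in sal003 and 475 ± 62.3 CPM in DMSO (0.14 ± 0.09). The other isomerases of the class, Pdia4 and Pdia6, had log2 fold changes of -0.04 ± 0.08 (0.00 without DMSO replicate 1) and -0.20 ± 0.09. The 3 adjusted p values for Pdia3, Pdia4 and Pdia6 were 0.371, 0.798 and 0.135 (edgeR).

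**Figure D2:**
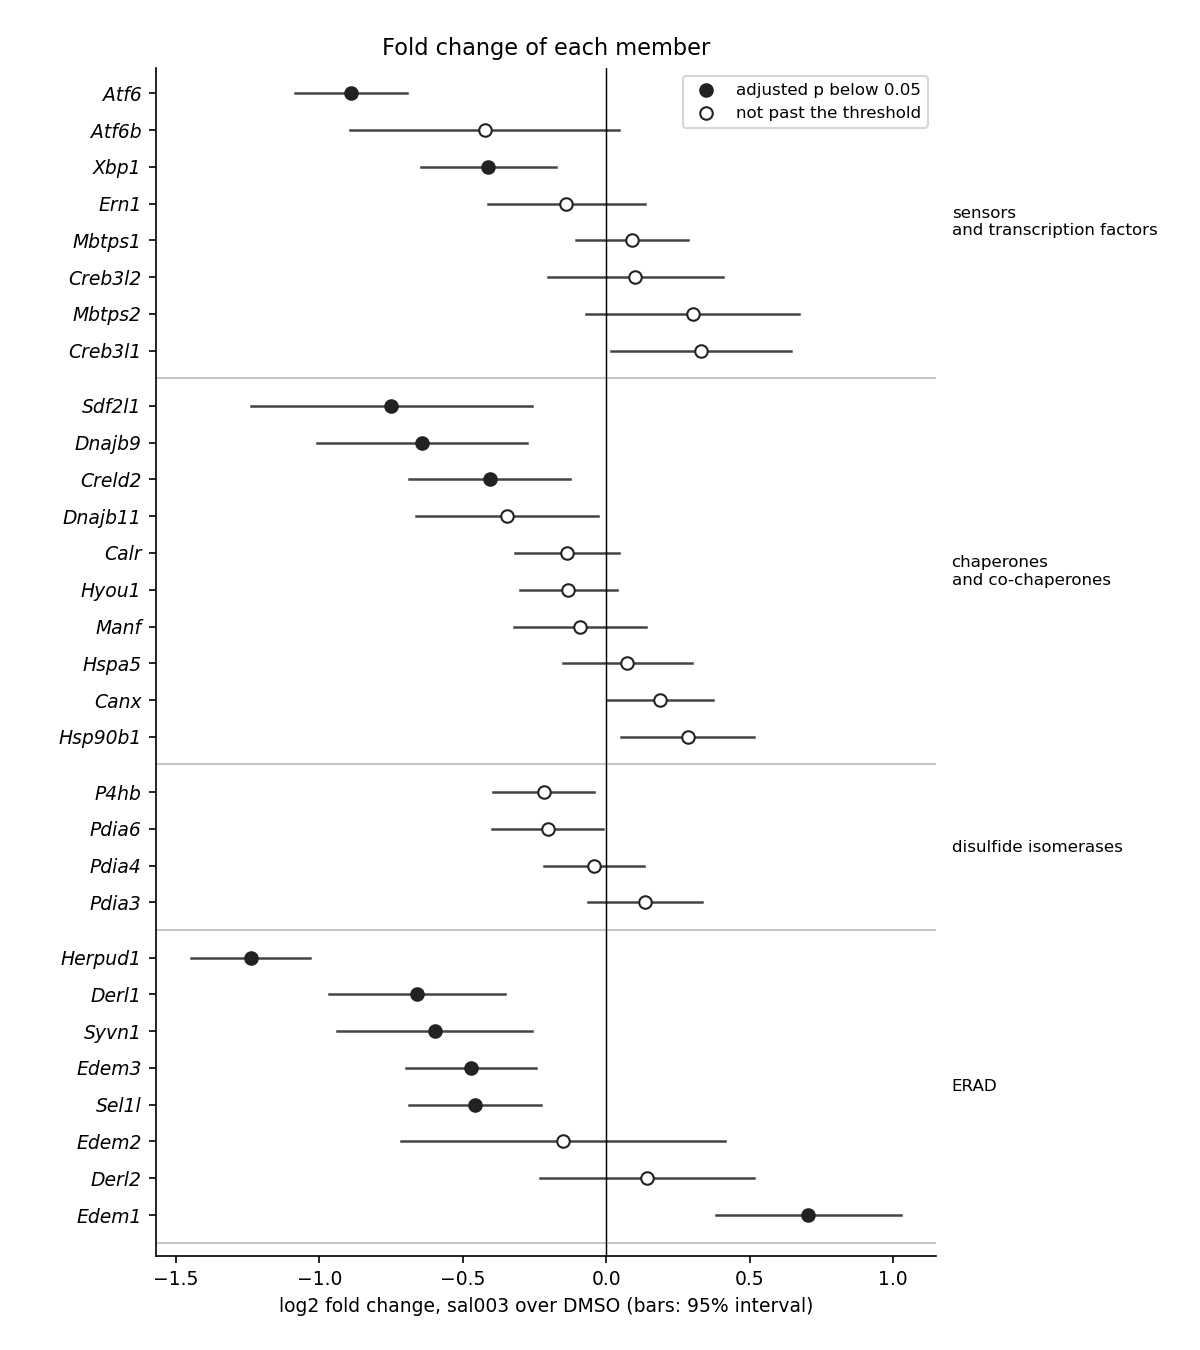
Log2 fold change of each member, sal003 over DMSO, with its 95% interval, by role; filled points are past an adjusted p of 0.05. Herpud1 at -1.24 and Edem1 at 0.70 mark the ends of the range, and both are ERAD factors.

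Of the 4 roles, ERAD had the largest share of members called lower, 62.5%, against 12.2% of all tested genes. The share called higher, 12.5%, was Edem1 alone and near the 10.6% of all tested genes. Herpud1, which encodes the membrane protein HERP that helps assemble the ubiquitin ligase complex of ERAD (chr8:94386438-94395377, plus strand), had 47.9, 48.4, 50.7 and 45.6 CPM in sal003, against 111, 119.7, 113 and 112 CPM in DMSO. The groups were wide apart and the spread within each was small. The log2 fold change was -1.24 ± 0.10 (adjusted p = 1.63e-07, edgeR), a level 0.424 times that in DMSO with a 95% interval of 0.367 to 0.489. The call held when any 1 library was left out. Per kb of exon, Herpud1 was the 9th most abundant member in DMSO at 48.7 CPM per kb; in sal003, at 20.6 CPM per kb, it was the 14th.

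The core of the ligase complex moved in the same direction. Syvn1, which encodes the ubiquitin ligase HRD1, had 30.1, 25.1, 27.5 and 35.5 CPM in sal003, against 46.6, 34.7, 52.2 and 45.4 CPM in DMSO. Only the highest sal003 library exceeded the lowest DMSO library, replicate 2. For Syvn1 the log2 fold change was -0.60 ± 0.16 (adjusted p = 0.0125, edgeR); without DMSO replicate 3 it was -0.51 (adjusted p = 0.0524). Sel1l, which encodes the adaptor that holds substrates to HRD1, had 109, 116, 97.3 and 133 CPM in sal003, against 146, 175, 156 and 148 CPM in DMSO. The groups did not overlap. Its log2 fold change was -0.46 ± 0.11 (adjusted p = 0.00549, edgeR). Derl1, a derlin of the channel through which substrates leave the ER, had 37.0, 34.7, 31.3 and 34.9 CPM in sal003, against 48.0, 69.2, 53.2 and 47.2 CPM in DMSO. All sal003 libraries were lower, and DMSO replicate 2 was the highest. The fold change of Derl1 was -0.66 ± 0.14 on the log2 scale (adjusted p = 0.00322, edgeR). The related Derl2 averaged 23.6 ± 1.75 CPM in sal003 and 21.4 ± 3.92 CPM in DMSO and did not pass (0.14 ± 0.18, adjusted p = 0.664, edgeR).

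The products of the 3 EDEM genes trim mannose from misfolded glycoproteins and so mark them for degradation. Edem1 was called higher, Edem3 lower and Edem2 not called, and Edem2 was not tested against Edem3. Edem1 (chr6:108828641-108859356, plus strand) had 50.3, 45.7, 45.2 and 44.9 CPM in sal003, against 22.6, 27.7, 35.7 and 28.2 CPM in DMSO. Every sal003 library was above every DMSO library. The fold change of Edem1 was 0.70 ± 0.15 on the log2 scale (adjusted p = 0.00279, edgeR), and Edem1 was the only member called higher. Edem3 had 133, 130.1, 147 and 167 CPM in sal003, against 214, 169, 209 and 208 CPM in DMSO. The groups did not overlap, with DMSO replicate 2 just above the highest sal003 library. Its log2 fold change was -0.47 ± 0.11 (adjusted p = 0.00391, edgeR). Edem2, the least abundant member per kb in DMSO, averaged 7.87 ± 1.27 CPM in sal003 and 8.73 ± 1.24 CPM in DMSO (-0.15 ± 0.26, adjusted p = 0.778, edgeR). The calls of Edem1, Edem3, Sel1l and Derl1 held when any 1 library was left out, with adjusted p of at most 0.0288.

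Whether related members moved unequally was tested on the log2 ratio of their CPM within each library, with an exact two-sided permutation test over the 70 splits of 4 against 4 and adjustment over 5 pairs; the smallest p it allows is 0.0286. The Edem1/Edem3 log2 ratio was -1.39, -1.50, -1.69 and -1.88 in sal003, against -3.22, -2.59, -2.54 and -2.86 in DMSO. The groups did not overlap, and the mean difference was 1.18 ± 0.19 (SE; exact permutation p = 0.0286, adjusted 0.0476). Edem1/Edem2 averaged 2.50 ± 0.16 in sal003 and 1.64 ± 0.32 in DMSO, a difference of 0.86 ± 0.18 (exact permutation p = 0.0286, adjusted 0.0476). Derl1/Derl2 averaged 0.54 ± 0.08 in sal003 and 1.33 ± 0.46 in DMSO, a difference of -0.79 ± 0.23 (exact permutation p = 0.0286, adjusted 0.0476). For both pairs no library of one group lay within the range of the other. Atf6/Atf6b differed by -0.47 ± 0.31 (exact permutation p = 0.2, adjusted 0.25) and Creb3l1/Creb3l2 by 0.21 ± 0.26 (exact permutation p = 0.571, adjusted 0.571), the second of these -0.04 without DMSO replicate 2, and both pairs overlapped between the groups. The change of Atf6 was thus not shown to differ from that of Atf6b, which was itself not called.

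**Figure D3:**
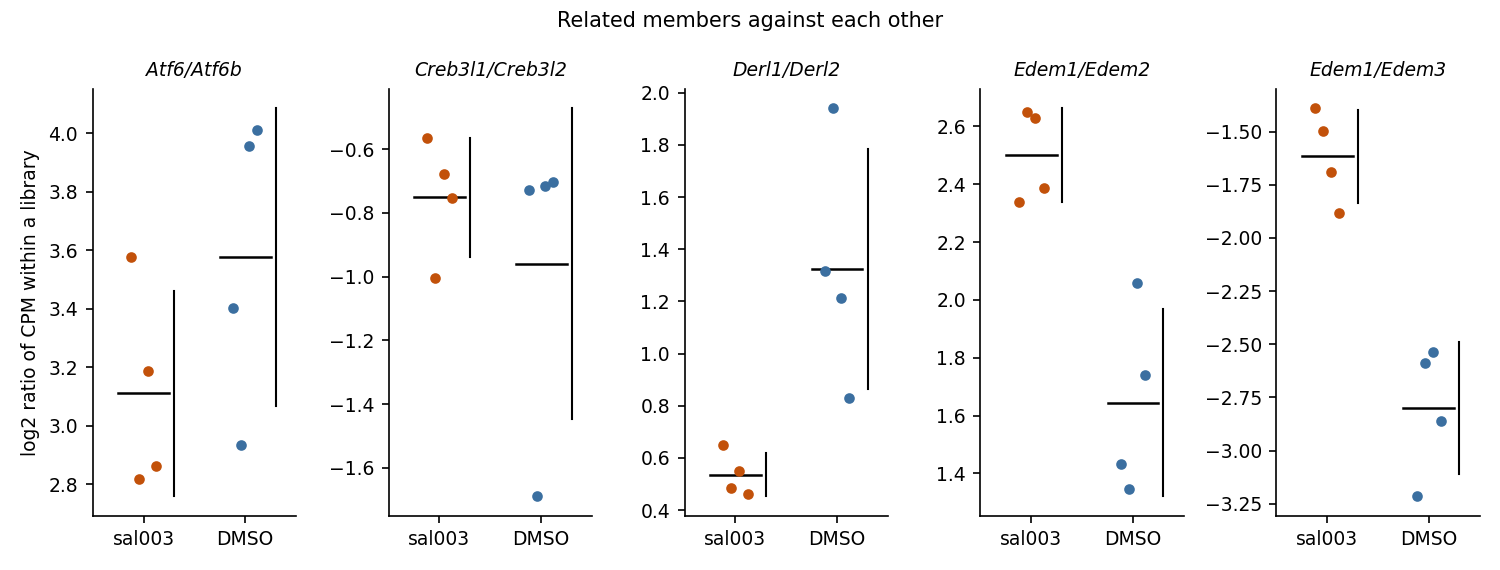
Log2 ratio of the CPM of related members within each library, for 5 pairs, sal003 left of DMSO; points are libraries, the horizontal line is the mean and the vertical line beside it is ± 1 SD (n = 4), and each panel has its own vertical scale. The groups are separate for Derl1/Derl2, Edem1/Edem2 and Edem1/Edem3 and overlap for Atf6/Atf6b and Creb3l1/Creb3l2.

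Ordered by level per kb of exon, the members ran from abundant folding enzymes down to signalling and degradation factors. The 8 above Herpud1, the most abundant called member, in DMSO were Calr (522 CPM per kb), Hsp90b1 (329), P4hb (213), Hspa5 (164), Pdia3 (151), Canx (141), Pdia4 (138) and Pdia6 (58.6). That none of them was called follows from placing the limit at Herpud1, and 22.7% of all tested genes were called; Hsp90b1, P4hb and Pdia6 passed under other settings. In sal003 the same genes had 475, 401, 183, 172, 166, 161, 134 and 50.9 CPM per kb. Calr and Hsp90b1 kept the first and second place in both groups. The 11 called members lay between 4.42 CPM per kb (Edem1) and 48.7 CPM per kb (Herpud1) in DMSO. At the low end, Derl2, Mbtps2 and Edem2 had 2.66, 2.66 and 2.52 CPM per kb in DMSO.

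**Figure D4:**
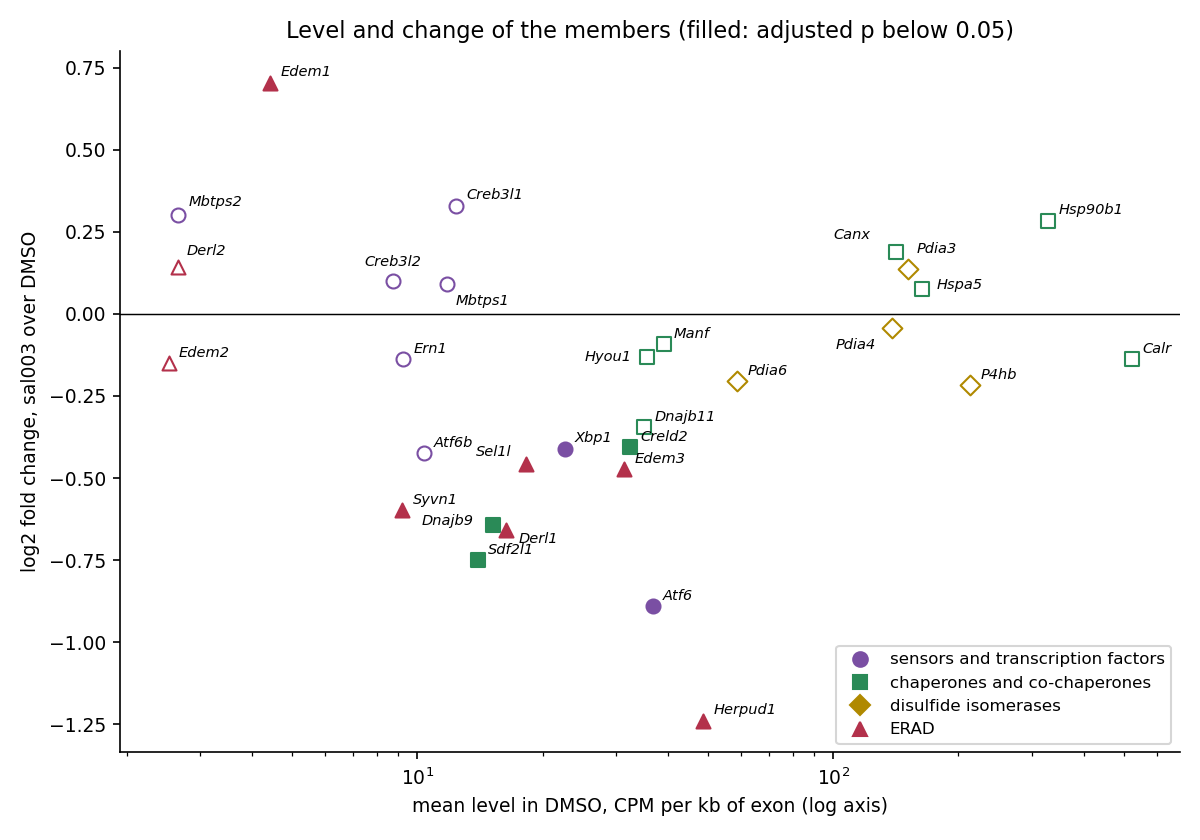
Mean level in DMSO in CPM per kb of exon (log axis) against the log2 fold change of each member, sal003 over DMSO; symbols give the role and filled symbols are past an adjusted p of 0.05. No filled symbol lies above the 48.7 CPM per kb of Herpud1.

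Of the 7 members with an ERSE, 2 were called, against 22.7% of all tested genes, a share too close to read as a result about them. Creld2 and Syvn1 fell (log2 fold changes -0.41 and -0.60), and Hspa5, Hsp90b1, Calr, Canx and Pdia6 did not pass, with values of 0.07, 0.28, -0.14, 0.19 and -0.20; differences among the 7 were not tested. Of the 2 with an ERSE-II, Herpud1 fell (-1.24) and Dnajb11 did not pass (-0.35). The other called members in the promoter table, Edem1, Edem3, Sel1l, Xbp1, Dnajb9 and Sdf2l1, held none of the motifs searched, which says only that these letters are not in these windows.

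Other genes of the pathway were read from 4 further lists, 114 genes in all, of which 112 were tested, 7 rose and 24 fell. That is 6.25% higher and 21.4% lower, against 10.6% and 12.2% of all tested genes. In the list of other signalling genes 23.5% of those tested were called in either direction, near the 22.7% of all tested genes. All of these calls were lower, against 12.2% lower and 10.6% higher among all tested genes. There 4 of 17 tested fell and 0 rose (median log2 fold change -0.17). These were Wfs1, an ER membrane protein mutated in Wolfram syndrome (-1.26 ± 0.11), Creb3, a membrane-bound factor related to Creb3l1 (-1.04 ± 0.16), Tmbim6, an ER membrane protein that dampens IRE1 and cell death (-0.57 ± 0.11), and Ppp1r15a, the stress-induced subunit that directs a phosphatase to eIF2α (-0.79 ± 0.18). All 4 had groups that did not overlap, but they were picked by p. In the whole list the groups did not overlap for 5 of 17 tested genes, against 26.8% of all tested genes. The PERK gene Eif2ak3 averaged 25.2 ± 2.54 CPM in sal003 and 27.3 ± 6.51 CPM in DMSO, and its log2 fold change was -0.12 ± 0.18 (adjusted p = 0.751, edgeR). Ern2 was at 0 in all libraries.

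Of the further lists, the other ERAD genes had the most falls. They were read from the same libraries as the members, and the lists were chosen with earlier results of these data known. This list is thus no independent repeat of the result for the members. Of 31 other ERAD genes 12 fell and 1 rose, with a median log2 fold change of -0.26. That is 38.7% lower and 3.23% higher, against 12.2% and 10.6% of all tested genes. In 8 fits that each left out 1 library, the falls of Os9, Ube2g2, Ubxn4, Sel1l3, March6, Trim13 and Fam8a1 held throughout. Ufd1l, Ngly1 and Ube4a kept theirs in 5 of 8, Vimp in 3 and Herpud2 in 2. The rise of Man1a was kept in 1 of 8. Sel1l3, a relative of Sel1l, had 12.3, 12.1, 10.9 and 24.9 CPM in sal003, against 50.7, 77.0, 59.4 and 69.8 CPM in DMSO. All sal003 libraries were far below DMSO, with replicate 4 the highest of them (log2 fold change -2.09 ± 0.25, adjusted p = 2.87e-05, edgeR). Os9, a lectin that brings glycoproteins to SEL1L, fell by 0.69 ± 0.11 on the log2 scale. Ube2g2, a ubiquitin-conjugating enzyme of ERAD, fell by 0.88 ± 0.16, and Ubxn4, an ER adaptor for the ATPase VCP, fell by 0.41 ± 0.09, both on the log2 scale.

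Among 32 other genes of luminal folding and glycan control, 4 rose and 5 fell (median -0.05). That is 12.5% higher and 15.6% lower, against 10.6% and 12.2% of all tested genes. These shares are too close to read as a result about the list. P4ha1, a catalytic subunit of the collagen prolyl hydroxylase to which P4hb also belongs, had a log2 fold change of -0.91 ± 0.13. Ero1l, the oxidase that recharges disulfide isomerases, rose by 0.89 ± 0.21 on the log2 scale. Uggt2, of the family that tags unfolded glycoproteins with glucose, rose by 0.88 ± 0.16, and Dnajc10, a reductase and J-domain partner of BiP, by 0.36 ± 0.09, both on the log2 scale. The adjusted p (edgeR) of these 4 genes ran from 5.38e-05 for P4ha1 to 0.0111 for Dnajc10.

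**Figure D5:**
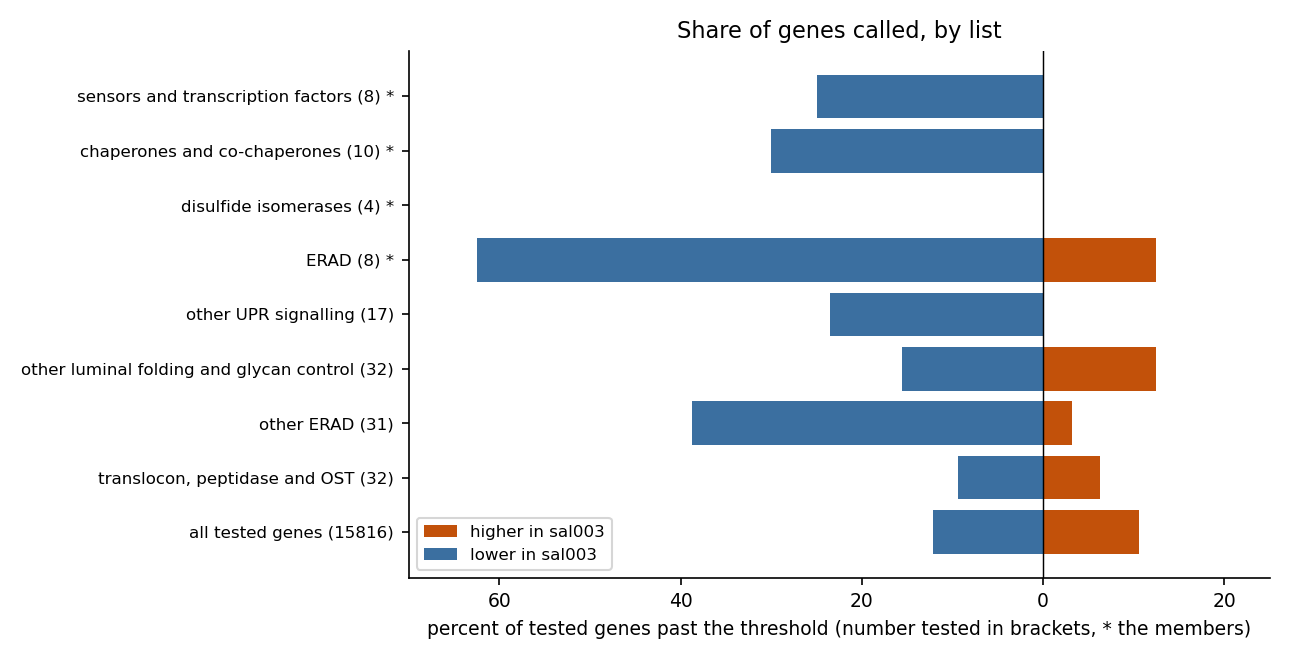
Percent of tested genes past an adjusted p of 0.05 in each member class (marked with a star), in each further pathway list and among all tested genes, with genes lower in sal003 to the left and genes higher in sal003 to the right; the number tested is in brackets. Of the ERAD members 62.5% were lower, and of the other ERAD genes 38.7%, against 12.2% of all tested genes.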

How the data were processed

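A table of whole-number counts, a value for each gene in each of 8 libraries, was deposited by the authors. The labels' protocols describe RiboGone depletion of ribosomal and mitochondrial transcripts and stranded SMARTer libraries. Trimmomatic 0.32, STAR 2.3.0e, featureCounts 1.4.4 and mm10 are named in the submitters' processing notes. How strand, multiple alignments and gene overlaps were handled is not given in the sources used here. Members with overlapping genes or close relatives are therefore uncertain. Most low counts are even: of counts from 1 to 20, 80.2% in sal003 and 80.5% in DMSO, so 1 fragment may count as 2. Halved counts are an alternative.

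In R 4.3.3, edgeR 4.0.16 kept genes by filterByExpr (minimum count 10, total 15), scaled libraries by TMM and fitted a robust quasi-likelihood model with sal003 against DMSO and no covariates. Tests were two-sided, adjusted over 15816 genes, with a threshold of 0.05. The SE is the size of the log2 fold change divided by the square root of F. CPM are TMM-scaled, and levels per kb use merged exon lengths of GENCODE M21 (mm10), which held 96.6% of the identifiers. The TMM factors were 0.905 to 0.958 in DMSO and 1.044 to 1.071 in sal003, and no fit used library totals alone. Summed levels and the sign of small changes therefore depend on this scaling. Replicate pairs differed beyond counting noise (chi-square per degree of freedom at least 24.3), so no library was a copy of another. This check cannot tell libraries of separate mice or cultures from repeat preparations of the same RNA. Depth precision covers counting error only. The fit was tested on simulated data.

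The 30 members and all lists were chosen with earlier results of these data known. All members are described; members past the threshold get every library's value, and each pathway list up to 4 members past it in order of p. Hspa5, Hsp90b1, Eif2ak3, Ern2 and single marker genes are given beyond that rule and were chosen after their values were seen. Alternatives were upper-quartile and DESeq2 scaling in edgeR, no or a stricter filter, removal of mitochondrial and the 20 most abundant genes, halved counts, a replicate block, leaving out each library, the Wald test of DESeq2 1.42.0, voom with sample quality weights in limma 3.58.1, an adjusted p of 0.01 and a test against a 1.5-fold change. The result of 1 further marker list is not reported here.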

Additional observations from a re-analysis of the deposited data

Results flagged for a closer look

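Within each group of 4 libraries, the gap of the highest or lowest library to its neighbour was divided by the group's range and compared with Dixon's critical value at the 95% level, for 96 groups in all; chance passes about 1 in 20 groups. For 3 members 1 library stood apart. Edem1 was higher in sal003 replicate 1, at 50.3 CPM against 44.9 to 45.7 CPM in the other sal003 libraries (ratio 0.852). Edem2 was higher in DMSO replicate 2, at 10.6 CPM against 8.05 to 8.20 CPM in the other DMSO libraries (0.943). Edem3 was lower in DMSO replicate 2, at 169 CPM against 208 to 214 CPM (0.873). Edem1 and Edem3 kept their calls without these libraries, and Edem2 was not called with or without its library.

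In the further lists, sal003 replicate 4 stood above the other sal003 libraries for P4ha1, at 65.1 CPM against 54.2 to 55.4 CPM (0.89), and for Sel1l3, at 24.9 CPM against 10.9 to 12.3 CPM (0.903). DMSO replicate 2 had 14437 genes with a count, against 17475 to 18076 in the other DMSO libraries (0.835).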

How the results depend on the processing

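Direction changed in 2 results, neither of them past the threshold: Pdia4 (reported -0.04) ran from -0.0666 to 0.0034 on leaving out each library, above 0 without DMSO replicate 1, and Creb3l1/Creb3l2 (reported 0.21) from -0.035 to 0.293, below 0 without DMSO replicate 2. Members called higher numbered 1 in the reported test, 2 with no filter, with DESeq2's Wald test and with limma-voom, and 0 against a 1.5-fold change; leaving out each library gave 1 to 3, with 3 without DMSO replicate 2 (Edem1, Mbtps2 and Hsp90b1) and 2 without DMSO replicate 3. Members called lower numbered 10, with 5 at an adjusted p of 0.01, 2 against a 1.5-fold change, 9 with no filter, 11 with DESeq2, 12 with limma-voom, 12 at a filter of 10 CPM in 4 libraries and 7 to 10 on leaving out each library. At that stricter filter P4hb and Pdia6 passed (adjusted p = 0.0251 and 0.0481). Among all tested genes, 984 were higher at an adjusted p of 0.01, and 266 were higher and 737 lower against a 1.5-fold change. With a replicate block 8 members were lower and 1 higher, Sdf2l1 and Creld2 no longer passing. Same-numbered libraries did not deviate together (correlations -0.00531 to 0.0354). This check would miss a weak shared origin, so whether the numbers pair the libraries is not known. The paired sign-flip test of the ratios gave -0.79 for Derl1/Derl2, 0.86 for Edem1/Edem2 and 1.18 for Edem1/Edem3 at an adjusted p of 0.208, in a design whose smallest p is 0.125. Leaving out a library gave -0.955 to -0.585 for Derl1/Derl2, 0.758 to 0.995 for Edem1/Edem2 and 1.045 to 1.273 for Edem1/Edem3; without any 1 of the sal003 libraries the adjusted p was 0.0952. Causes were not tested. Hsp90b1 and P4hb, not called in the reported test, passed with DESeq2 (adjusted p = 0.0373 and 0.0387). The member with the fewest reads, Edem2, had at least 252 counts in each library.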

Other observations

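Genes that carry new proteins into the ER and attach their glycans were read from a further list. Of 32 genes of the translocon, signal peptidase and oligosaccharyltransferase, 2 rose and 3 fell, with a median log2 fold change of -0.07; 15.6% of the list was called, against 22.7% of all tested genes, and its difference from ERAD was not tested. Sec62, a partner of the translocon known also as a receptor for ER turnover, averaged 66.5 ± 10.6 CPM in sal003 and 118 ± 4.60 CPM in DMSO (log2 fold change -0.83 ± 0.12, adjusted p = 6.49e-05, edgeR). Srp14, a subunit of the signal recognition particle, averaged 35.9 ± 5.63 CPM in sal003 and 58.9 ± 14.0 CPM in DMSO (-0.71 ± 0.17, adjusted p = 0.00643, edgeR). Ssr1, a subunit of the complex that assists translocation, averaged 405 ± 25.8 CPM in sal003 and 287 ± 56.0 CPM in DMSO (0.50 ± 0.12, adjusted p = 0.00644, edgeR). Sec61a1, the main pore subunit of the translocon, averaged 116 ± 7.96 CPM in sal003 and 93.5 ± 1.90 CPM in DMSO (0.32 ± 0.09, adjusted p = 0.02, edgeR), and 2 of 8 fits that left out 1 library lost this call, those without sal003 replicate 1 (adjusted p = 0.0804) and without sal003 replicate 3 (adjusted p = 0.0689). All SD are over n = 4 libraries.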
